A study of Gallus gallus with 18 samples.

Results

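Gene expression in the chick trigeminal ganglion was compared between the ends of the interval that the study sampled, HH17-18 against HH13-14. The comparison covered 12 of the 18 libraries, which are 6 of the 9 pools. It tested every gene that passed a filter for low counts, 17724 of the 30108 genes in the deposited table. Hamburger-Hamilton (HH) stages order chick embryos by their outer form. Each stage had 3 pools labelled as biological replicates, and each pool was sequenced as 2 technical replicates, 1 on lane 7 and 1 on lane 8, whose counts were summed. Both groups were trigeminal ganglia of wild-type embryos, no treatment is named for either, and the stage was the sole labelled difference. RNA was poly(A)-enriched. The ganglia were pooled, and the labels do not give the number or sex of the embryos in a pool or whether pools came from separate batches of eggs, so the p-values measure the spread between these pools. All levels are CPM, counts per gene scaled to a common library size and not divided by gene length, so the CPM of one gene against another also reflects their lengths. Where a gene is given pool by pool, the order is replicates 1, 2 and 3. SE is the standard error of a log2 fold change.

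The trigeminal ganglion carries touch, temperature and pain from the face. Its neurons arise from ectodermal placodes and from the neural crest, and its glia from the neural crest. At the stages studied placode-derived cells are already becoming neurons while crest cells around them condense with them into a ganglion and still divide. Dissected ganglia also carry blood vessels, blood cells and some of the tissue next to them. In RNA of whole ganglia, fewer cells of a type and less RNA per cell cannot be told apart.

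The pools held 53458986 to 68083147 counts. Correlations of log2 CPM between pools were 0.987 to 0.991 within HH13-14, 0.982 to 0.985 within HH17-18 and 0.972 to 0.983 between the stages. The biological coefficient of variation, the spread between pools of a stage beyond counting error, was 12.3% at HH13-14 and 21.2% at HH17-18. It was largest at HH15-16, at 24.8%, and the pools of that stage also entered the fit that gave the calls. Defining markers of sensory neurons summed to 975 to 1016 CPM at HH13-14 and 959 to 1462 CPM at HH17-18. Most of this sum was TUBB3, a tubulin of neurons, at 851 to 914 CPM and 817 to 1182 CPM. All 6 markers had counts in every pool, and POU4F1 was the lowest, at 0.996 to 3.66 CPM over both stages. Markers of the neural tube ranged from 140 CPM in HH17-18 replicate 2 to 402 CPM in HH17-18 replicate 1, against 206 to 278 CPM at HH13-14. Head mesenchyme markers were highest in HH17-18 replicate 2, at 455 CPM against 272 to 308 CPM in the other pools of either stage. The part of this spread in the results below was not tested.

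**Figure D1:**
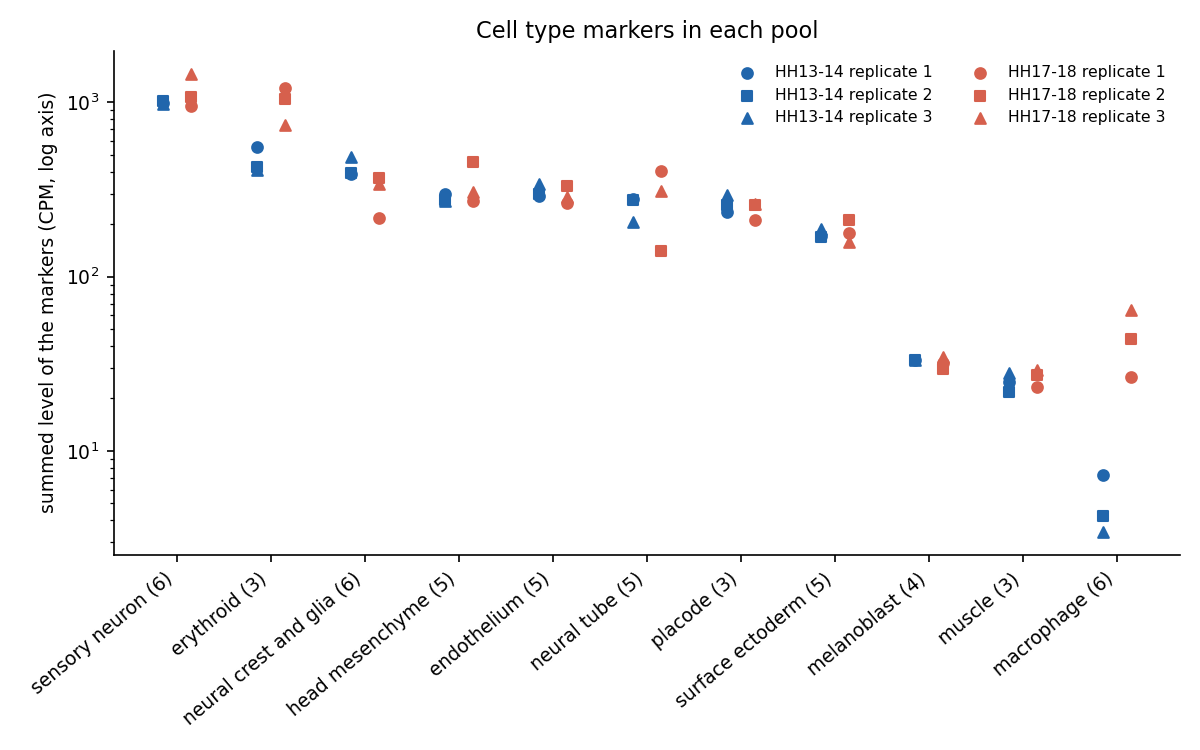
Summed level in CPM, on a log axis, of the defining markers of 11 cell types in each of the 6 pools, with the number of markers tested in brackets. Circles, squares and triangles are replicates 1, 2 and 3 of HH13-14 (blue) and HH17-18 (orange). Macrophage markers lay between 3.44 and 7.32 CPM at HH13-14 and between 26.5 and 64.6 CPM at HH17-18, and erythroid markers were also apart, while the sums for sensory neurons, placode and endothelium overlapped.

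From HH13-14 to HH17-18 lists of white blood cell, matrix proteoglycan and glycoprotein, and neuronal cytoskeleton genes held more risen than fallen members, and lists of ribosome biogenesis, LIN28-related and glycolysis genes held fallen and no risen members. edgeR's quasi-likelihood test with Benjamini-Hochberg adjustment called 425 genes higher at HH17-18 (2.40% of the genes tested) and 375 lower (2.12%), 4.51% in all, at an adjusted p under 0.05. Of the genes in any of the 90 gene lists, 4.7% were higher and 4.0% lower. Both pairs of shares are the background for the list counts below. Among the called genes rises were larger than falls. At low counts a change must be larger to pass the test, and the part of count level in this difference was not tested. The median log2 fold change was 1.29 among the genes that rose and -0.59 among those that fell, and 273 rises but 120 falls were at least 2-fold. All 800 genes had the 3 pools of 1 stage beyond the 3 pools of the other, as did 16.0% of all genes tested in the upward and 15.4% in the downward direction.

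The genes that fell drew more counts than those that rose, on a scale that is not per length. Their median level over the 6 pools was 53.6 CPM, against 6.78 CPM for the genes that rose and 14.7 CPM for all genes tested. Of the 2626 genes that reached 100 CPM at either stage, 36 rose (1.37%) and 146 fell (5.56%). Between 1 and 10 CPM the order was the opposite, with 3.97% risen and 1.61% fallen. The median log2 fold change of all genes tested was 0.02. A fit of the 6 pools alone, without HH15-16, called 765 genes higher and 625 lower. Leaving out 1 pool moved the counts widely, and without HH15-16 replicate 1 they were 786 higher and 722 lower. They were 27 to 45 higher and 69 to 75 lower without any 1 pool of HH13-14, and 72 to 358 higher and 105 to 291 lower without 1 of HH17-18.

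**Figure D2:**
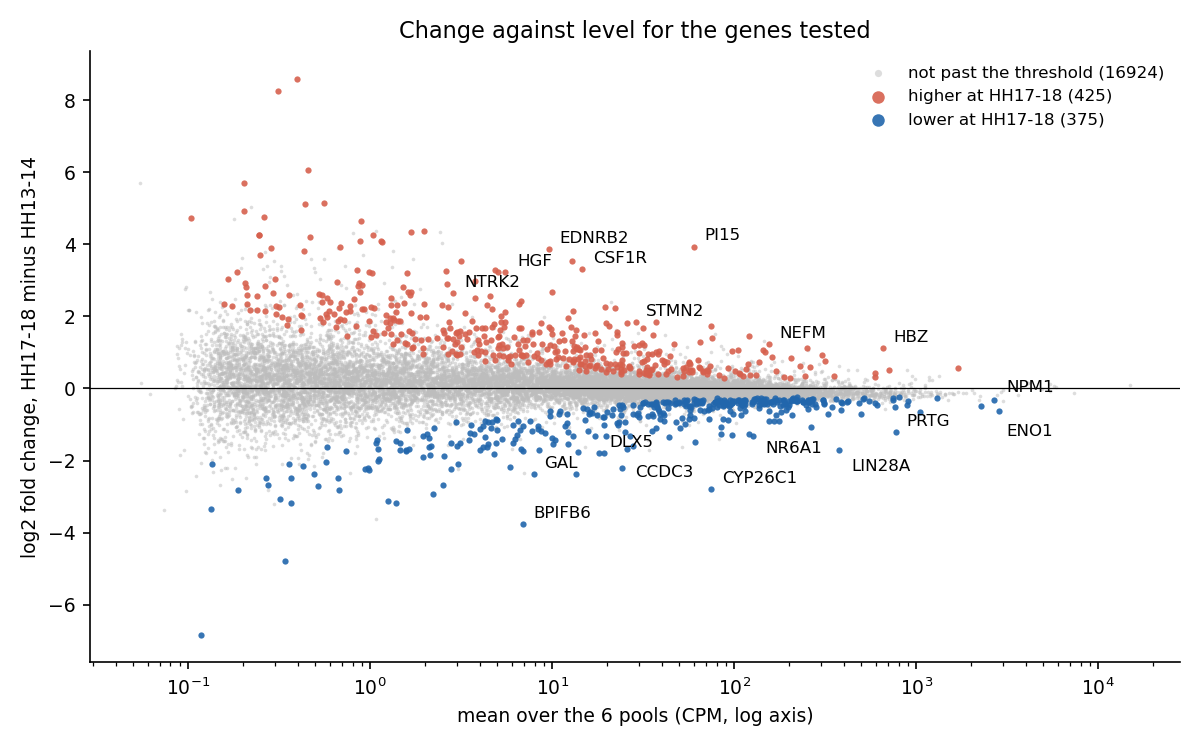
Log2 fold change from HH13-14 to HH17-18 against the mean level over the 6 pools in CPM on a log axis, for 17724 genes. Orange points are the 425 genes higher at HH17-18 and blue points the 375 lower ones. Falls crowd the right side of the plot at small changes, and rises spread over the left side and the middle at larger ones.

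Among genes of at least 5 CPM the largest rises included PI15, EDNRB2 and HGF. PI15 (chromosome 2, 118094139 to 118126443, in the RefSeq annotation of build GRCg7b), a secreted peptidase inhibitor of the CRISP family, read 6.97, 7.53 and 7.56 CPM at HH13-14 and 76.4, 173 and 88.1 CPM at HH17-18. Every HH17-18 pool was above every HH13-14 pool, and the highest was replicate 2 (log2 fold change 3.94, SE 0.46, adjusted p 0.00402). EDNRB2 (chromosome 4, 11117090 to 11128197), the endothelin receptor that marks migrating melanoblasts in birds, read 0.943, 1.12 and 1.61 CPM at HH13-14 and 13.8, 18.5 and 21.6 CPM at HH17-18. It was scarce in each early pool and clearly present in each late one (log2 fold change 3.87, SE 0.52, adjusted p 0.00588). HGF (chromosome 1, 10859559 to 10922316), the growth factor that binds the MET receptor, read 1.90, 1.91 and 2.32 CPM at HH13-14 and 15.9, 34.04 and 20.5 CPM at HH17-18. Its HH17-18 pools lay well clear of the narrow HH13-14 range (log2 fold change 3.52, SE 0.28, adjusted p 0.000569).

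OSR2, MEOX2 and VIT were also among the leading rises. OSR2, a zinc-finger factor of facial and palatal mesenchyme in the mouse, read 0.396, 0.449 and 0.638 CPM at HH13-14 and 2.08, 7.62 and 7.65 CPM at HH17-18, with replicate 1 the lowest late pool and no overlap (log2 fold change 3.55, SE 0.62, adjusted p 0.0169). MEOX2, a homeobox factor of mesoderm, rose from 2.18 ± 0.425 to 11.04 ± 3.66 CPM (mean ± SD, n = 3 in all such values below) (log2 fold change 2.34, adjusted p 0.0303). VIT, a matrix protein with von Willebrand domains, read 2.27, 3.05 and 2.76 CPM at HH13-14 and 16.2, 19.01 and 16.8 CPM at HH17-18, which was tight at both stages (log2 fold change 2.69, SE 0.34, adjusted p 0.00514). OGN, a small leucine-rich proteoglycan, rose from 1.12 ± 0.560 to 6.42 ± 2.88 CPM. LRRC17, a secreted leucine-rich repeat protein, rose from 6.82 ± 1.40 to 32.4 ± 11.5 CPM. TNFAIP6, which binds hyaluronan, rose from 0.853 ± 0.269 to 6.73 ± 2.33 CPM (log2 fold change 2.98, adjusted p 0.00402), and ANGPTL2, a secreted angiopoietin-like protein, rose from 17.7 ± 0.441 to 30.4 ± 0.962 CPM (log2 fold change 0.78, adjusted p 0.00402). Head mesenchyme markers moved unevenly beside these genes. Of 26 members of that list 2 rose, OSR2 and MEOX2, which is 7.69% against 2.40% of all genes tested. None fell by edgeR, with 2 lower by DESeq2, 1 by limma voom and 3 at an unadjusted p under 0.05.

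TRPC4, a cation channel subunit, rose from 2.12 ± 0.151 to 11.3 ± 5.84 CPM (log2 fold change 2.41, adjusted p 0.0101). DIRAS2, a small GTPase of the Ras family, read 1.08, 0.953 and 0.868 CPM at HH13-14 and 5.58, 14.96 and 6.96 CPM at HH17-18. Replicate 2 of HH17-18 stood highest and the stages did not overlap (log2 fold change 3.24, SE 0.52, adjusted p 0.0117). BCL11A, a zinc-finger repressor active in neurons and blood cells, rose from 1.30 ± 0.180 to 7.79 ± 2.52 CPM (log2 fold change 2.57, adjusted p 0.0156). SLC12A1, a sodium, potassium and chloride cotransporter, rose from 0.493 ± 0.243 to 4.70 ± 0.895 CPM (log2 fold change 3.26, adjusted p 0.00514). LIX1, first described in the chick limb, rose from 3.87 ± 0.708 to 13.5 ± 4.14 CPM (log2 fold change 1.80, adjusted p 0.00514).

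**Figure D3:**
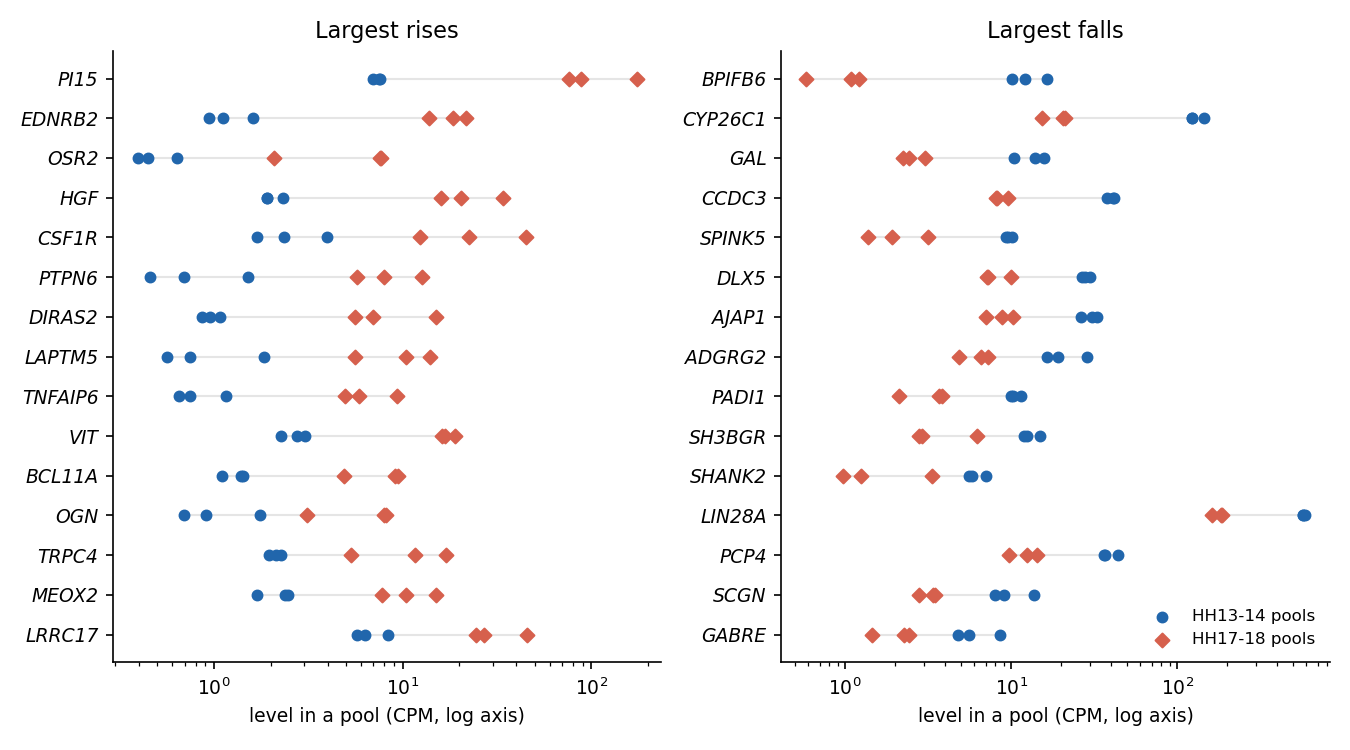
Level in each of the 3 HH13-14 pools (blue circles) and the 3 HH17-18 pools (orange diamonds), in CPM on a log axis, for the 15 genes with the largest rises (left) and the 15 with the largest falls (right) among called genes of at least 5 CPM. By the choice of genes the stages do not overlap. PI15 and LIN28A have the highest CPM on their sides, and late pools spread more than early ones in genes such as CSF1R and OSR2.

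The largest falls included CYP26C1, BPIFB6 and CCDC3. CYP26C1 (chromosome 6, 21362453 to 21370584), an enzyme that breaks down retinoic acid, read 123.4, 122.8 and 146 CPM at HH13-14 and 15.3, 20.5 and 20.96 CPM at HH17-18. Each late pool held a small part of the level of each early pool (log2 fold change -2.79, SE 0.27, adjusted p 0.00168). BPIFB6, of the BPI fold family of lipid-binding proteins, read 12.1, 10.1 and 16.5 CPM at HH13-14 and 0.582, 1.08 and 1.21 CPM at HH17-18 and had the lowest log2 fold change of the genes in this class (log2 fold change -3.76, SE 0.30, adjusted p 0.000569). CCDC3 (chromosome 1, 7213796 to 7255281), a secreted coiled-coil protein, read 40.8, 37.8 and 41.4 CPM at HH13-14 and 8.07, 9.51 and 8.24 CPM at HH17-18. Replicates were close together at each stage (log2 fold change -2.22, SE 0.12, adjusted p 3.11e-05). GAL, the neuropeptide galanin, fell from 13.3 ± 2.73 to 2.56 ± 0.419 CPM (log2 fold change -2.38, adjusted p 0.00467).

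DLX5 and DLX6, neighbouring homeobox genes of the placodal border and pharyngeal arches, fell together. DLX5 (chromosome 2, 24355474 to 24357757) read 27.8, 26.5 and 30.03 CPM at HH13-14 and 7.15, 9.91 and 7.20 CPM at HH17-18 (log2 fold change -1.80, SE 0.22, adjusted p 0.00467). DLX6 (chromosome 2, 24346981 to 24350502) read 4.55, 4.06 and 6.11 CPM at HH13-14 and 1.10, 1.22 and 1.12 CPM at HH17-18 (log2 fold change -2.09, SE 0.22, adjusted p 0.00263). In neither gene did the stages overlap, and the other 3 DLX genes tested did not pass the test. AJAP1, an adherens junction protein, fell from 30.02 ± 3.27 to 8.70 ± 1.58 CPM, and PCP4, a calmodulin-binding peptide of neurons, fell from 39.1 ± 4.40 to 12.1 ± 2.29 CPM (log2 fold change -1.69, adjusted p 0.00402). SCGN, a calcium-binding protein of neuroendocrine cells and neurons, fell from 10.2 ± 3.00 to 3.22 ± 0.378 CPM. SPINK5, a serine protease inhibitor of epithelia, fell from 9.64 ± 0.414 to 2.15 ± 0.906 CPM (log2 fold change -2.17, adjusted p 0.0334). ADGRG2, an adhesion G protein-coupled receptor, fell from 21.4 ± 6.34 to 6.23 ± 1.22 CPM (log2 fold change -1.78, adjusted p 0.00481), and SHANK2, a scaffold of the postsynaptic density, fell from 6.14 ± 0.813 to 1.86 ± 1.30 CPM (log2 fold change -1.72, adjusted p 0.0375).

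Part of the LIN28 group fell. LIN28 proteins bind RNA, hold back the let-7 microRNAs and are typical of early embryonic cells. Of 21 genes tested in a list of LIN28 proteins, let-7 targets and other embryonic RNA-binding and growth genes, 7 fell and 0 rose, against 2.12% and 2.40% of all genes tested, and the list's median log2 fold change was -0.32 against 0.02. By DESeq2, by limma voom and by the fit of the 6 pools alone 0 members rose as well, and 0 had an unadjusted p under 0.05 in that direction. LIN28A (chromosome 23, 549150 to 560450) read 587, 574 and 572 CPM at HH13-14 and 184, 187 and 162 CPM at HH17-18. The middle stage lay between, with 334, 329.6 and 392 CPM at HH15-16. No pool of one stage reached the range of another, and LIN28A had the smallest p of all genes tested (log2 fold change -1.70, SE 0.08, adjusted p 1.69e-05).

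Other members fell as well. LIN28B, the second LIN28 protein, read 385, 382 and 447 CPM at HH13-14 and 248, 235 and 258 CPM at HH17-18 (log2 fold change -0.71, SE 0.11, adjusted p 0.00894). SALL4, a zinc-finger factor of pluripotent cells, fell from 260.01 ± 14.7 to 156 ± 17.3 CPM (log2 fold change -0.74, adjusted p 0.00855). NR6A1, the orphan nuclear receptor also called germ cell nuclear factor, read 197, 175 and 170.1 CPM at HH13-14 and 67.2, 70.5 and 79.6 CPM at HH17-18. Its early pools were all far above its late pools (log2 fold change -1.32, SE 0.11, adjusted p 0.000694). PRTG, protogenin, a membrane receptor of the early neural tube and mesoderm, read 1125, 1119 and 1008 CPM at HH13-14 and 640.05, 363 and 403 CPM at HH17-18 (log2 fold change -1.21, SE 0.21, adjusted p 0.0153). HMGA2, a chromatin protein that let-7 represses, fell from 174 ± 15.9 to 129.9 ± 10.03 CPM, and CDC25A, a phosphatase that drives entry into the cell cycle, fell from 65.5 ± 9.10 to 47.1 ± 1.58 CPM. Without 1 pool of HH13-14 the list had 3 or 4 members fallen, without HH17-18 replicate 3 it had 4, and without any 1 of the remaining pools 6 to 9.

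Ribosome biogenesis had the largest share of fallen members of the 90 lists. The list of ribosome biogenesis factors, which make ribosomal RNA and ribosome subunits in the nucleolus, had 29 members tested, of which 15 fell and 0 rose, with a median log2 fold change of -0.34. In all 29 every HH17-18 pool was below every HH13-14 pool, which held for 15.4% of all genes tested. For rises, DESeq2, limma voom and the fit of the 6 pools also gave 0 members, as did an unadjusted p under 0.05. RRS1, an assembly factor of the large subunit, read 90.1, 105 and 86.8 CPM at HH13-14 and 52.4, 48.98 and 55.5 CPM at HH17-18 (log2 fold change -0.85, SE 0.09, adjusted p 0.0035). DDX21, a nucleolar RNA helicase, read 309, 320.4 and 284 CPM at HH13-14 and 238, 195 and 181 CPM at HH17-18 (log2 fold change -0.57, SE 0.10, adjusted p 0.014). NCL, nucleolin, fell from 158 ± 7.04 to 115 ± 7.75 CPM. NPM1, nucleophosmin, had the highest CPM of those named here and read 3158, 3005 and 2780 CPM at HH13-14 and 2463, 2249 and 2406 CPM at HH17-18. Its fall was small beside its level and still larger than the spread between pools (log2 fold change -0.33, SE 0.07, adjusted p 0.0279). POLR1B and POLR1C, subunits of RNA polymerase I and of polymerases I and III, fell from 161 ± 2.31 to 131 ± 3.35 CPM and from 89.2 ± 2.90 to 68.4 ± 4.11 CPM.

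The count of ribosome biogenesis genes past the threshold depended on single pools. It was 21 in the fit of the 6 pools and 20 by DESeq2. Without HH13-14 replicates 1, 2 and 3 in turn it was 2, 2 and 4, and without HH17-18 replicates 1, 2 and 3 in turn it was 18, 5 and 2. NPM3, a nucleoplasmin family chaperone that was outside the list, also fell, from 356 ± 40.05 to 171 ± 9.93 CPM (log2 fold change -1.06, adjusted p 0.00247). Cytosolic ribosomal proteins lay slightly lower at HH17-18. Of 69 tested 3 fell, among them RPS13 and RPL15, and none rose. The list's median log2 fold change was -0.15, with 68 of 69 members below 0, and RPL15 fell from 817 ± 30.04 to 677 ± 7.71 CPM (log2 fold change -0.27, adjusted p 0.028). Such a small shift was not particular to this list. Medians were -0.14 for splicing factors and hnRNPs (50 of 54 below 0), -0.14 for mitochondrial ribosomal proteins (62 of 69) and -0.13 for translation factors (50 of 59). Where a ribosomal protein gene has near-identical copies, reads could be shared among them. Defining markers of crest and glia were lower as well, at 390 to 488 CPM in sum at HH13-14 and 218 to 369 CPM at HH17-18, and their part in these falls was not tested. The count of fallen ribosomal protein genes was 10 in the fit of the 6 pools and 8 by DESeq2, and it was 0 without any 1 pool of HH13-14 and without HH17-18 replicate 2 or 3.

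**Figure D4:**
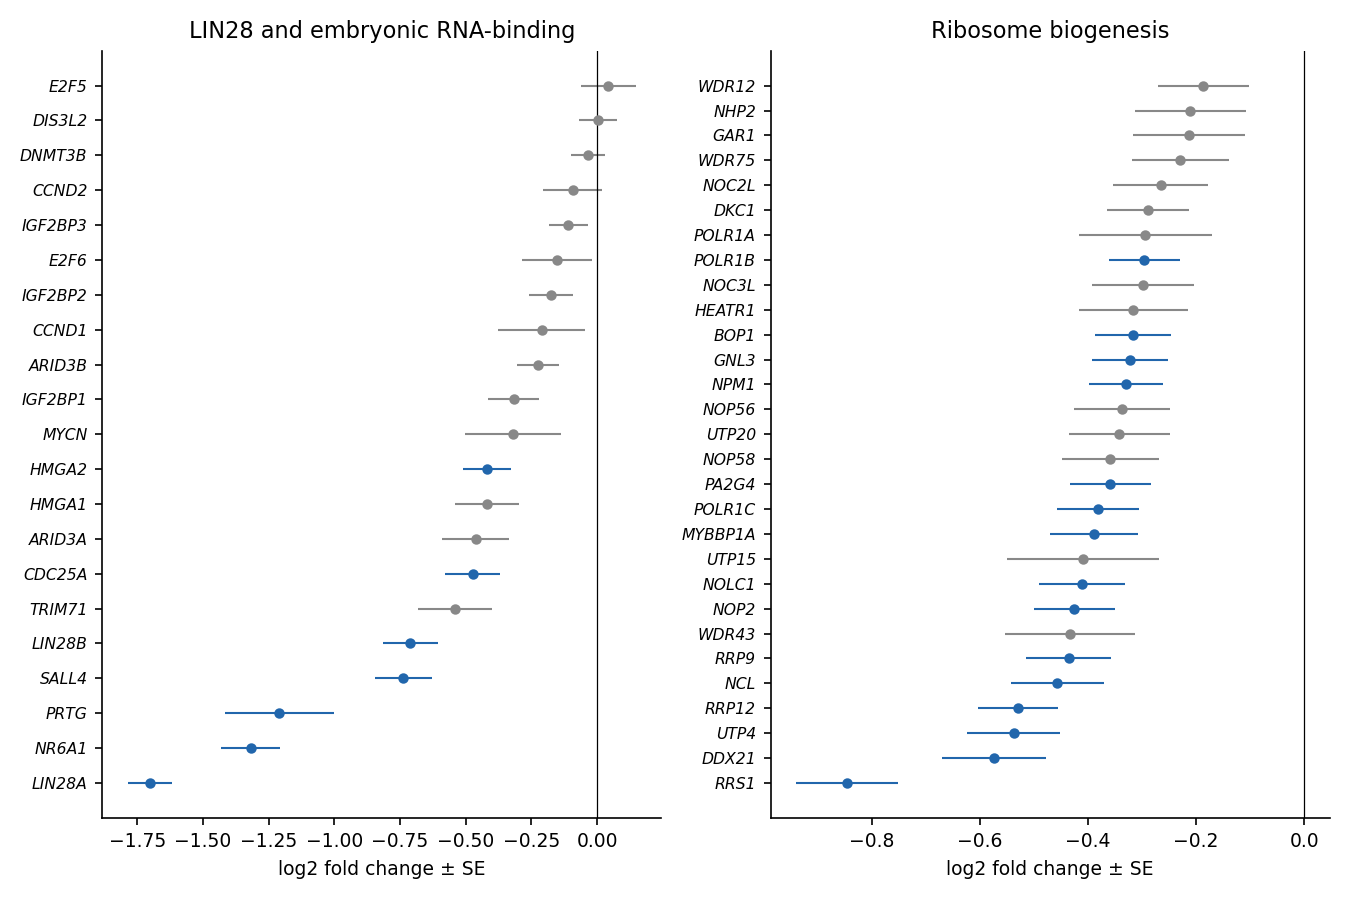
Log2 fold change from HH13-14 to HH17-18 with its SE for each tested member of the LIN28 list (left, 21 genes) and of the ribosome biogenesis list (right, 29 genes). Blue points passed the test and grey points did not. Every ribosome biogenesis gene lies left of 0, from RRS1 at -0.85 to WDR12 at -0.19, while the LIN28 list runs from LIN28A at -1.70 to members at and just above 0.

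Some glycolysis genes fell. Of 24 glycolysis genes 5 fell and none rose by edgeR, with a median log2 fold change of -0.17, and none rose by DESeq2, by limma voom or at an unadjusted p under 0.05. ENO1, enolase, read 3544, 3239 and 3513 CPM at HH13-14 and 2672, 1957 and 2061 CPM at HH17-18. All late pools were below the early ones (log2 fold change -0.62, SE 0.12, adjusted p 0.0255). LDHB, lactate dehydrogenase B, fell from 1283 ± 79.5 to 810.1 ± 133 CPM (log2 fold change -0.66, adjusted p 0.0117), PFKL, liver-type phosphofructokinase, fell from 127 ± 3.92 to 87.5 ± 6.84 CPM, and PGAM1, phosphoglycerate mutase, fell from 1031 ± 70.5 to 750.04 ± 89.5 CPM. SLC16A1, which carries lactate and pyruvate across the membrane, fell from 288 ± 7.21 to 209 ± 15.9 CPM. Without HH13-14 replicates 1, 2 and 3 in turn 0, 1 and 0 of these genes passed, and without HH17-18 replicates 2 and 3 in turn 2 and 0 did.

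No DNA replication or mitosis gene passed the test. Of 40 DNA replication genes and 35 mitosis genes, edgeR called 0 in either direction, and so did DESeq2, limma voom and the fit of the 6 pools. At an unadjusted p under 0.05, 5 replication genes were lower and 0 higher, and 3 mitosis genes were lower and 1 higher. Their median log2 fold changes were -0.11 and -0.03. Of 75 nuclear genes of the respiratory chain 0 were called by edgeR, with 1 lower by DESeq2, 1 by limma voom and 4 at an unadjusted p under 0.05, and none higher by any of these. MYC, the transcription factor that drives growth genes, fell from 53.5 ± 8.70 to 28.5 ± 5.71 CPM (log2 fold change -0.91, adjusted p 0.018).

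Some genes of axons rose. Of 21 genes of the neuronal cytoskeleton and growth cone 5 rose and none fell, with a median log2 fold change of 0.41. STMN2, a tubulin-binding protein of growth cones, read 12.6, 13.5 and 11.8 CPM at HH13-14 and 31.05, 30.3 and 73.3 CPM at HH17-18. Replicate 3 was the highest late pool and the stages did not overlap (log2 fold change 1.83, SE 0.36, adjusted p 0.0244). NEFM, the middle neurofilament subunit, read 97.2, 98.3 and 83.9 CPM at HH13-14 and 168, 167 and 318 CPM at HH17-18 (log2 fold change 1.22, SE 0.27, adjusted p 0.0354). NEFL, the light neurofilament subunit, rose from 31.1 ± 1.40 to 57.5 ± 21.4 CPM, STMN4, a relative of STMN2, rose from 2.39 ± 0.359 to 8.64 ± 3.99 CPM, and DCX, a microtubule protein of young neurons, rose from 32.2 ± 4.73 to 53.2 ± 7.42 CPM. Summed neuron markers, which are mostly TUBB3 and include STMN2 itself, were highest in the same HH17-18 replicate 3. They read 1462 CPM there against 959 and 1072 CPM in the other late pools. Without HH13-14 replicates 1, 2 and 3 in turn 0, 1 and 0 of the list passed, and without HH17-18 replicate 3 none did.

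Neurotrophins are survival factors of sensory neurons. Of 13 receptors of the neurotrophin and GDNF families 2 rose and none fell. NTRK2, the receptor of brain-derived neurotrophic factor, read 0.822, 0.580 and 0.974 CPM at HH13-14 and 4.81, 3.58 and 6.44 CPM at HH17-18. It was above its early range in every late pool (log2 fold change 2.64, SE 0.40, adjusted p 0.00984). Among 23 transcription factors of sensory neurons 3 rose and none fell. RUNX3, a factor of proprioceptive and mechanosensory neurons, rose from 0.349 ± 0.0915 to 1.67 ± 0.679 CPM, and SCRT2, a zinc-finger repressor of the neuronal lineage, rose from 3.35 ± 0.165 to 8.99 ± 4.78 CPM, while the third, POU4F3, stayed below 1 CPM. None of the 23 passed without any 1 pool of HH13-14 or without HH17-18 replicate 3, the pool with the highest neuron markers. ISL1, POU4F1 and DRGX, transcription factors among the defining neuron markers, overlapped between the stages and did not pass. Their log2 fold changes were 0.09, 0.22 and 0.02. SLC17A6, the vesicular glutamate transporter of excitatory sensory neurons, was the single gene of 27 for synaptic vesicles that rose by edgeR, from 0.247 ± 0.0461 to 1.39 ± 0.707 CPM (log2 fold change 2.48, adjusted p 0.0257). DESeq2 called 3 of the 27 higher, limma voom 4 and the fit of the 6 pools 2. The call of SLC17A6 held in 12 of 18 alternative settings.

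Transmitter and peptide genes moved both ways. Of 85 neurotransmitter receptors 2 rose and 5 fell, which is 2.35% and 5.88%, so the share risen was near the 2.40% of all genes tested. GABRB2 and GABRE, subunits of the GABA-A receptor, fell from 8.95 ± 0.769 to 3.16 ± 0.124 CPM and from 6.31 ± 2.01 to 2.05 ± 0.530 CPM. GRM4, a metabotropic glutamate receptor, fell from 49.9 ± 4.60 to 31.3 ± 4.90 CPM, and HTR4, a serotonin receptor, fell from 3.05 ± 0.540 to 1.17 ± 0.436 CPM. ADRA2A, an alpha-adrenergic receptor, rose from 19.3 ± 1.66 to 44.6 ± 12.05 CPM, and HTR1B, a serotonin receptor that is the target of triptans, rose from 11.04 ± 1.85 to 23.2 ± 6.49 CPM (log2 fold change 1.07, adjusted p 0.0266). PENK, the precursor of enkephalins, rose from 4.09 ± 0.310 to 10.4 ± 2.28 CPM and moved against GAL, the other neuropeptide gene past the threshold of 16 tested. Of 102 voltage-gated channel genes 4 rose and 5 fell, which is 3.92% and 4.90% against 2.40% and 2.12% of all genes tested. The shares were near the 4.7% and 4.0% of genes in any of the 90 lists. Without any 1 pool of HH13-14 none rose and 0 or 1 fell.

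Immunoglobulin adhesion molecules and semaphorin genes changed in both directions. CNTN2, a contactin on the axons of early projecting neurons, read 34.4, 38.3 and 30.97 CPM at HH13-14 and 75.1, 105 and 163 CPM at HH17-18. Late pools lay above early pools without overlap, with replicate 3 the highest (log2 fold change 1.73, SE 0.33, adjusted p 0.0223). CNTN1, a second contactin, rose from 1.55 ± 0.162 to 4.66 ± 1.30 CPM, and THY1, a small surface glycoprotein of neurons, rose from 11.5 ± 0.966 to 16.5 ± 1.22 CPM. The call of THY1 held in 6 of 18 alternative settings. CADM3 and LSAMP, neuronal adhesion molecules of the same immunoglobulin family, fell from 71.6 ± 7.19 to 42.7 ± 6.21 CPM and from 66.9 ± 2.57 to 47.5 ± 1.77 CPM. Of the 29 such molecules tested 3 rose and 2 fell, which is 10.3% and 6.90%, against 2.40% and 2.12% of all genes tested. Without any 1 pool of HH13-14 none rose and 0 or 1 fell.

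Of 27 semaphorins, neuropilins and plexins 3 rose and 2 fell, which is 11.1% and 7.41%, against 2.40% and 2.12% of all genes tested. Without any 1 pool of HH13-14 0 or 1 rose and none fell. SEMA3E, a secreted semaphorin, rose from 7.94 ± 0.702 to 22.02 ± 7.23 CPM, SEMA5B rose from 103 ± 12.8 to 171 ± 21.3 CPM, and SEMA5A rose from 31.5 ± 4.20 to 50.8 ± 7.74 CPM. NRP2, a neuropilin that serves as a semaphorin receptor on migrating crest cells, read 583, 629.6 and 651 CPM at HH13-14 and 301, 439 and 392 CPM at HH17-18. Its late pools were all below its early ones (log2 fold change -0.72, SE 0.15, adjusted p 0.0303). PLXNA2, a plexin receptor, fell from 48.8 ± 3.02 to 29.8 ± 6.43 CPM. NTNG1, a membrane-anchored netrin, rose from 11.9 ± 1.02 to 33.5 ± 8.19 CPM (log2 fold change 1.49, adjusted p 0.0259), SLIT2, a secreted repellent of axons, rose from 42.5 ± 5.11 to 62.7 ± 6.80 CPM, and EPHA4, an ephrin receptor, rose from 147 ± 11.7 to 264 ± 66.2 CPM (log2 fold change 0.85, adjusted p 0.0355).

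**Figure D5:**
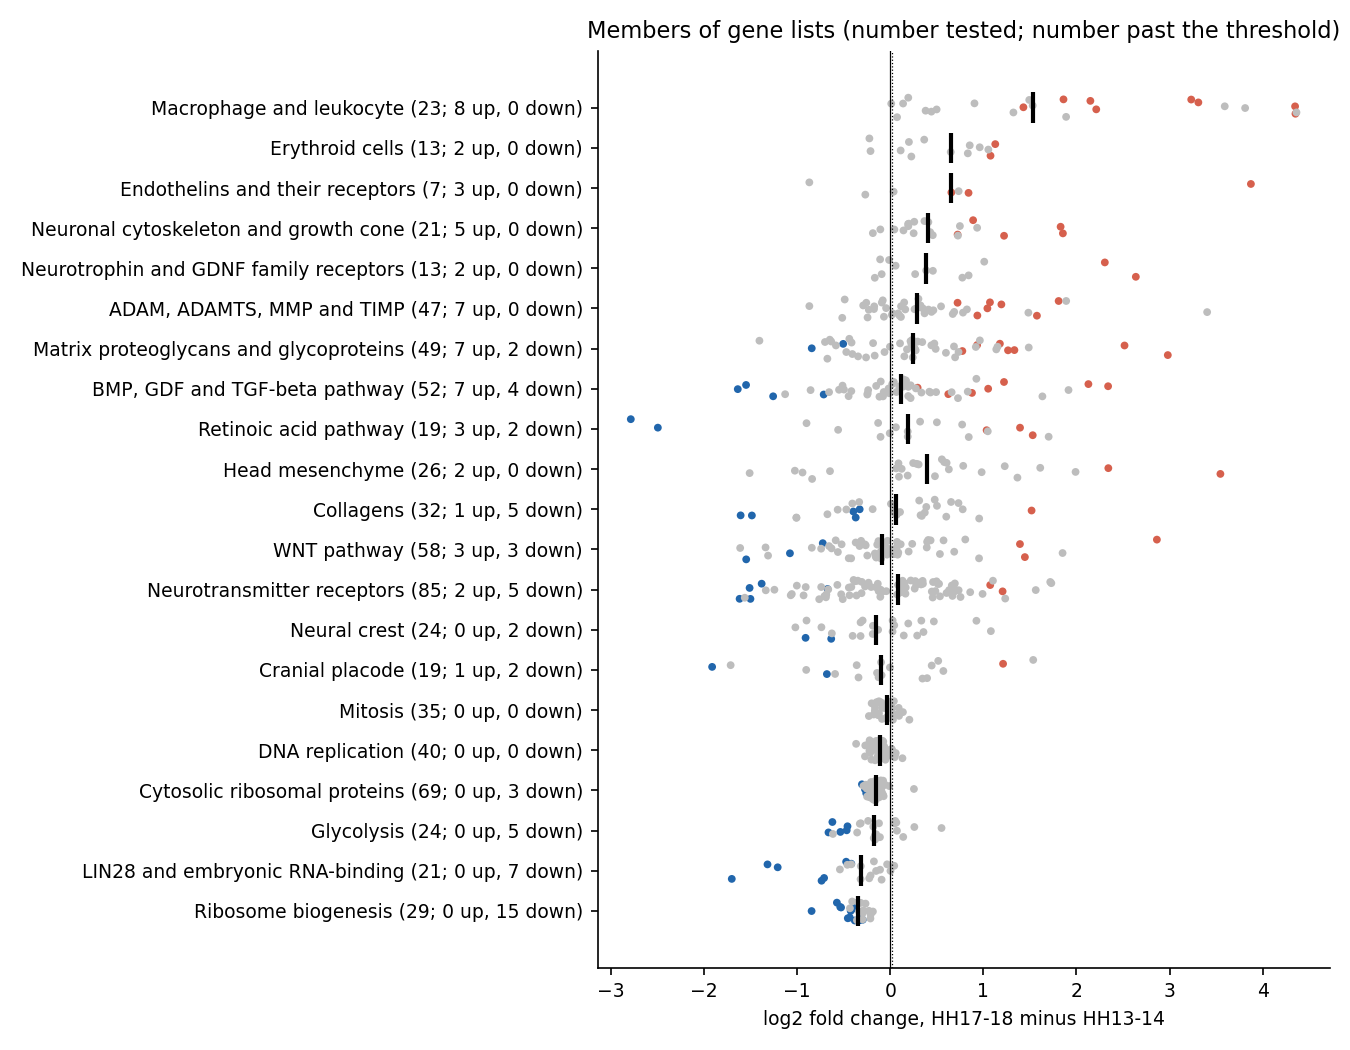
Log2 fold change from HH13-14 to HH17-18 of each tested member of 21 gene lists, with orange for genes that rose, blue for genes that fell and grey for the rest. Black bars are list medians, the solid line is 0 and the dotted line is the median of all genes tested at 0.02. Ribosome biogenesis, with 15 of 29 fallen, forms a narrow band left of 0, macrophage genes spread far to the right, and collagens, WNT and BMP genes lie on both sides.

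More proteoglycan and glycoprotein genes of the matrix rose than fell. Of 49 such genes 7 rose and 2 fell, with a median log2 fold change of 0.24. DCN, decorin, a collagen-binding proteoglycan, read 192, 229 and 209 CPM at HH13-14 and 356, 482 and 364 CPM at HH17-18 (log2 fold change 0.93, SE 0.21, adjusted p 0.036). POSTN, periostin, rose from 18.4 ± 1.38 to 44.1 ± 18.5 CPM, HAPLN1, the link protein that ties proteoglycans to hyaluronan, rose from 17.2 ± 0.768 to 38.97 ± 5.67 CPM (log2 fold change 1.18, adjusted p 0.00514), and LOXL2, an enzyme that cross-links collagen, rose from 30.4 ± 2.72 to 51.98 ± 12.4 CPM. CD44, a hyaluronan receptor, rose from 1.09 ± 0.0535 to 2.74 ± 0.350 CPM. HAPLN3, a second link protein, fell from 50.1 ± 1.59 to 27.9 ± 3.58 CPM, and NID2, a basement membrane nidogen, fell from 405 ± 11.7 to 285 ± 43.2 CPM. Without HH13-14 replicates 1, 2 and 3 in turn 2, 2 and 3 members passed as higher, and without HH17-18 replicates 2 and 3 in turn 2 and 2 did. Head mesenchyme markers were highest in that HH17-18 replicate 2, and their part in this result was not tested.

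Of 47 ADAM, ADAMTS, MMP and TIMP genes 7 rose and 0 fell by edgeR, with 3 lower by DESeq2, 2 by limma voom, 1 in the fit of the 6 pools and 3 at an unadjusted p under 0.05. MMP2, a gelatinase of mesenchyme, read 61.9, 69.2 and 59.5 CPM at HH13-14 and 118, 179.7 and 95.7 CPM at HH17-18 (log2 fold change 1.04, SE 0.25, adjusted p 0.0442). ADAMTSL2, a secreted protein of the ADAMTS-like family that has no protease domain, rose from 11.4 ± 0.804 to 40.1 ± 25.9 CPM, ADAM12, a protease of mesenchymal and muscle precursors, rose from 9.13 ± 1.44 to 19.2 ± 4.34 CPM, and TIMP4, an inhibitor of these proteases, rose from 1.74 ± 0.513 to 5.20 ± 1.53 CPM. Without HH13-14 replicates 1, 2 and 3 in turn 0, 0 and 1 passed as higher, and without HH17-18 replicates 2 and 3 in turn 0 and 1 did.

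Of 32 collagens 5 fell and 1 rose by edgeR, which is 15.6% and 3.1%, against 2.12% and 2.40% of all genes tested. The list's median log2 fold change was 0.06, and the fit of the 6 pools called 6 higher and 6 lower. Without any 1 pool of HH13-14 none rose and 1 or 2 fell. COL9A2, a chain of the cartilage collagen IX that is also made around the notochord and early eye, read 85.3, 75.9 and 107 CPM at HH13-14 and 25.7, 32.9 and 36.9 CPM at HH17-18. All late pools lay far below the lowest early pool (log2 fold change -1.49, SE 0.16, adjusted p 0.00246). COL9A1, its partner chain, fell from 41.8 ± 0.994 to 13.7 ± 3.39 CPM. The basement membrane collagens COL4A5, COL4A6 and COL18A1 fell less, with log2 fold changes of -0.33, -0.40 and -0.37. COL17A1, a collagen of the hemidesmosomes of skin, rose from 5.18 ± 0.867 to 14.8 ± 2.83 CPM. LAMA5, a laminin chain of epithelial basement membranes, fell from 215 ± 12.2 to 116 ± 15.7 CPM, while LAMA2, a laminin chain of muscle and Schwann cell basement membranes, rose from 8.46 ± 0.723 to 18.8 ± 5.43 CPM (log2 fold change 1.15, adjusted p 0.0364).

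Retinoic acid genes changed in synthesis and in breakdown. Retinoic acid is made from vitamin A by retinaldehyde dehydrogenases and destroyed by CYP26 enzymes. ALDH1A2, a dehydrogenase that makes it, read 39.03, 37.95 and 48.2 CPM at HH13-14 and 87.1, 142 and 99.8 CPM at HH17-18 (log2 fold change 1.39, SE 0.31, adjusted p 0.0334). DHRS3, which turns retinaldehyde back into retinol, rose from 5.83 ± 0.914 to 16.8 ± 0.717 CPM (log2 fold change 1.53, adjusted p 0.00245). CYP26B1, a relative of CYP26C1, rose from 6.95 ± 1.94 to 14.3 ± 3.27 CPM, in the opposite direction to CYP26C1. Its call held in 9 of 18 alternative settings, and that of CYP26C1 in all 18. Of 19 genes of the pathway 3 rose and 2 fell, which is 15.8% and 10.5%, against 2.40% and 2.12% of all genes tested. Without any 1 pool of HH13-14 1 rose and 1 fell.

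BMP, WNT and other signalling families held genes of both directions. BMP4, a bone morphogenetic protein of ectoderm and arches, read 15.9, 13.5 and 15.9 CPM at HH13-14 and 4.78, 6.80 and 3.89 CPM at HH17-18 (log2 fold change -1.55, SE 0.23, adjusted p 0.009). NOG, noggin, a BMP antagonist, fell from 3.19 ± 0.600 to 1.02 ± 0.523 CPM. BAMBI, a decoy receptor that BMP signalling induces, rose from 25.1 ± 2.91 to 51.98 ± 7.53 CPM, and GDF10, a ligand of the same superfamily, rose from 2.04 ± 0.239 to 8.94 ± 0.977 CPM (log2 fold change 2.13, adjusted p 0.000923). SMAD3, which carries TGF-beta signals to the nucleus, rose from 181 ± 12.3 to 279 ± 39.7 CPM. Of 52 genes 7 rose and 4 fell, which is 13.5% and 7.69%, against 2.40% and 2.12% of all genes tested. Without any 1 pool of HH13-14 1 or 2 rose and 1 fell.

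Among 58 WNT pathway genes 3 rose and 3 fell, which is 5.17% each way, against 2.40% and 2.12% of all genes tested. The shares were near the 4.7% and 4.0% of genes in any of the 90 lists. WNT2B and WNT16, secreted ligands, fell from 114 ± 3.83 to 54.1 ± 12.6 CPM and from 6.62 ± 0.895 to 2.26 ± 0.162 CPM, and FZD7, a WNT receptor, fell from 212 ± 6.87 to 128 ± 5.66 CPM (log2 fold change -0.73, adjusted p 0.00402). WNT6 and WNT10A, ligands made by ectoderm, rose from 7.12 ± 1.09 to 19.4 ± 5.55 CPM and from 0.215 ± 0.0593 to 1.58 ± 0.358 CPM. DKK2, a secreted modulator of WNT receptors, rose from 1.48 ± 0.541 to 3.89 ± 0.920 CPM. Surface ectoderm factors GRHL3 and TP63 rose beside them, from 8.90 ± 0.421 to 19.1 ± 2.26 CPM and from 8.02 ± 0.443 to 18.3 ± 3.80 CPM, and EPCAM, an epithelial adhesion molecule, fell from 101 ± 8.61 to 74.5 ± 5.69 CPM. The summed surface ectoderm markers overlapped, at 169 to 187 CPM at HH13-14 and 158 to 212 CPM at HH17-18.

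An endothelin ligand gene and endothelin receptor genes rose. EDN3, the ligand that acts on crest-derived melanoblasts and enteric neurons, read 5.74, 6.02 and 6.25 CPM at HH13-14 and 8.84, 13.2 and 10.3 CPM at HH17-18 (log2 fold change 0.84, SE 0.17, adjusted p 0.0253). EDNRA, the receptor of facial mesenchyme and vessels, rose from 28.6 ± 1.23 to 45.1 ± 5.83 CPM. With EDNRB2, 3 of 7 genes rose by edgeR, which is 42.9% against 2.40% of all genes tested. None fell by edgeR, with 1 lower by DESeq2, 2 by limma voom and 2 at an unadjusted p under 0.05. Without any 1 pool of HH13-14, or without HH17-18 replicate 2 or 3, EDNRB2 alone passed as higher, and without HH17-18 replicate 1 2 genes did. The 4 melanoblast markers summed to 33.3 to 33.4 CPM at HH13-14 and 29.3 to 34.6 CPM at HH17-18, and none of them passed the test. A list of tyrosine kinase receptors and their ligands, which leaves out those counted in other lists, such as NTRK2, EPHA4 and CSF1R, had 4 of 41 members risen and none fallen by edgeR, with 1 lower by DESeq2, 1 by limma voom and 5 at an unadjusted p under 0.05. Beside HGF these were ALK, a receptor of developing neurons, which rose from 2.27 ± 0.593 to 8.15 ± 0.454 CPM, and the angiopoietins ANGPT1 and ANGPT2, ligands that act on vessels, which rose from 15.01 ± 1.02 to 47.9 ± 14.04 CPM and from 3.88 ± 0.449 to 11.5 ± 3.06 CPM.

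A few genes of neural crest and early glia fell. ETS1, a factor of cranial crest and endothelium, read 128, 146 and 144 CPM at HH13-14 and 74.3, 101 and 93.8 CPM at HH17-18 (log2 fold change -0.63, SE 0.15, adjusted p 0.0375). The 6 defining markers of crest and glia summed to 390 to 488 CPM at HH13-14 and 218 to 369 CPM at HH17-18, without overlap. Of the longer list of 24 crest genes 2 fell, ETS1 and MYC, and none rose by edgeR. DESeq2 called 5 lower and 1 higher, limma voom 6 and 1, and the fit of the 6 pools 7 and 0. The unadjusted p was under 0.05 for 7 lower and 2 higher members. Of 18 glial genes 1 fell and none rose by edgeR. DESeq2 called 3 lower and 1 higher, limma voom and the fit of the 6 pools 2 and 1 each, and 3 lower and 2 higher members had an unadjusted p below 0.05. FGFR4, a receptor found in the trigeminal placode, fell from 36.5 ± 3.35 to 22.7 ± 2.28 CPM. IRX2, an Iroquois homeobox factor, rose from 18.1 ± 4.12 to 42.02 ± 10.6 CPM, so that of 19 placode genes 1 rose and 2 fell. These are 5.26% and 10.5%, against 2.40% and 2.12% of all genes tested and 4.7% and 4.0% of genes in any of the 90 lists.

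Other developmental transcription factors changed singly. FOXP2, a forkhead factor of neurons, rose from 38.1 ± 2.39 to 92.3 ± 19.9 CPM (log2 fold change 1.28, adjusted p 0.00827), and its relative FOXP4 rose from 237 ± 17.3 to 397 ± 68.9 CPM. TBX2, a T-box repressor, rose from 2.08 ± 0.303 to 8.34 ± 2.80 CPM. GATA4 and GATA5, factors of heart and endoderm, fell from 1.13 ± 0.218 to 0.341 ± 0.141 CPM and from 2.26 ± 0.309 to 0.257 ± 0.0485 CPM, and TCF21, a bHLH factor of head muscle and epicardium, fell from 3.35 ± 0.222 to 0.938 ± 0.364 CPM (log2 fold change -1.84, adjusted p 0.0422). Of 35 HOX genes with a row, 5 passed the filter, and edgeR called 0 of them, with 2 higher by DESeq2, 2 by limma voom and 4 at an unadjusted p under 0.05, and none lower by any of these.

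Macrophage genes had the highest median change among the lists of cell types. Of 23 genes of macrophages and other white blood cells 8 rose and 0 fell, with a median log2 fold change of 1.53, and all 23 lay above 0. No member fell by DESeq2, by limma voom, by the fit of the 6 pools or at an unadjusted p under 0.05. CSF1R, the receptor that macrophages need to survive, read 3.99, 2.34 and 1.70 CPM at HH13-14 and 12.4, 22.5 and 44.98 CPM at HH17-18. Replicate 3 was the highest late pool and replicate 1 the lowest, and none overlapped with HH13-14 (log2 fold change 3.31, SE 0.75, adjusted p 0.0365). PTPRC, the pan-leukocyte antigen CD45, read 1.77, 1.25 and 1.67 CPM at HH13-14 and 4.15, 5.06 and 7.84 CPM at HH17-18 (log2 fold change 1.86, SE 0.35, adjusted p 0.0223). SPI1, the transcription factor PU.1, was close to 0 early and read 0.350, 0.150 and 0.0354 CPM at HH13-14 and 2.04, 3.67 and 5.62 CPM at HH17-18 (log2 fold change 4.35, SE 1.01, adjusted p 0.0401). LAPTM5, a lysosomal protein of white blood cells, rose from 1.05 ± 0.692 to 9.97 ± 4.21 CPM, LCP1, a leukocyte plastin, rose from 4.76 ± 0.508 to 21.1 ± 9.72 CPM, and PTPN6, a phosphatase of blood cells, rose from 0.886 ± 0.549 to 8.80 ± 3.55 CPM. Of the complement markers, C1QA and C1QC were at 0 in HH13-14 replicate 3. Without any 1 pool of HH13-14 0 members passed, and without HH17-18 replicates 1, 2 and 3 in turn 8, 1 and 0 did. Without HH15-16 replicates 1, 2 and 3 in turn 11, 4 and 11 passed, and the fit of the 6 pools called 13.

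A pair of globin genes rose. HBZ, an embryonic globin, read 495, 378 and 369 CPM at HH13-14 and 1099, 944 and 673 CPM at HH17-18, with every late pool above every early one (log2 fold change 1.13, SE 0.26, adjusted p 0.0406). HBAD, another alpha-type globin, rose from 93.1 ± 19.3 to 196 ± 24.1 CPM. Reads of globin genes may be shared between near-identical copies. Of 13 erythroid genes 2 rose and none fell by edgeR. DESeq2 called 5 higher, limma voom 4 and the fit of the 6 pools 5, none called any lower, and 6 were higher and 1 lower at an unadjusted p under 0.05. Without any 1 pool of HH13-14 or of HH17-18, 0 passed. The 3 erythroid markers tested summed to 409 to 553 CPM at HH13-14 and 741 to 1205 CPM at HH17-18. Most of this sum was HBZ itself. The other markers, HBBA and SLC4A1, read higher in every late pool but did not pass (adjusted p 0.0963 and 0.113 by edgeR). Of 22 endothelial genes 3 fell and 1 rose, which is 13.6% and 4.55%, against 2.12% and 2.40% of all genes tested. LMO2, a transcriptional adaptor of blood and endothelium, read 68.98, 77.4 and 82.3 CPM at HH13-14 and 42.2, 46.8 and 41.6 CPM at HH17-18 (log2 fold change -0.81, SE 0.10, adjusted p 0.00467). STAB2, a scavenger receptor of sinusoidal endothelium, fell from 34.8 ± 2.44 to 15.2 ± 4.95 CPM, and SOX18, an endothelial factor, fell from 24.2 ± 2.83 to 13.8 ± 3.51 CPM, while LYVE1, a hyaluronan receptor of lymphatic vessels and some macrophages, rose from 1.89 ± 0.210 to 4.93 ± 1.35 CPM. The 5 defining endothelial markers overlapped between stages, at 292 to 342 CPM and 264 to 331 CPM in sum.

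Of 276 solute carriers 15 rose and 5 fell by edgeR, which is 5.43% and 1.81% against 2.40% and 2.12% of all genes tested. Among genes in any of the 90 lists the shares were 4.7% and 4.0%. DESeq2 called 21 higher and 15 lower, limma voom 18 and 12, and the fit of the 6 pools 18 and 10. Without any 1 pool of HH13-14 1 was higher and 0 lower, and without HH17-18 replicates 1, 2 and 3 in turn 8, 1 and 1 were higher and 4, 1 and 0 lower. SLC1A3, a glutamate transporter of glia, rose from 43.1 ± 3.53 to 65.4 ± 4.49 CPM, and SLC40A1, the iron exporter ferroportin, rose from 42.4 ± 2.38 to 70.9 ± 13.1 CPM. SLC5A6, a vitamin transporter, fell from 63.8 ± 3.43 to 45.3 ± 5.20 CPM. Of 60 ABC transporters and ion pumps 1 rose and 3 fell, which is 1.67% and 5.0%, against 2.40% and 2.12% of all genes tested. Without any 1 pool of HH13-14 none rose and 0 or 1 fell.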

How the data were processed

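The authors deposited whole-number counts per gene, which were used as deposited. Trim Galore, HISAT2, featureCounts and build GRCg7b are named, without versions, per the submitters' processing notes. Their settings, and whether strand was used, are not given in the sources used here, so genes that overlap or lie antisense, and near-identical copies, are uncertain. Technical replicates were summed to 9 pools of 53458986 to 68083147 counts.

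All 9 pools entered 1 edgeR 4.0.16 quasi-likelihood fit in R 4.3.3 (filterByExpr, TMM), with the contrast HH17-18 minus HH13-14 and Benjamini-Hochberg adjustment over 17724 genes. Tests were two-sided. SE is the one implied by the test statistic. CPM values use TMM-scaled library sizes. Alternatives were DESeq2 1.42.0, limma 3.58.1 voom with sample weights, DESeq2 size factors, no filter, the 6 pools alone, single lanes, a replicate block, a minimum fold and leaving out each pool. The 6-pool fit with a replicate block was added after the data were seen.

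Named genes were the 15 largest changes in each direction at 5 CPM or more without overlap, the 10 smallest p in each direction, and called members of 90 gene lists, of which at most 4 in each direction come from the rule and the others were chosen after their values were seen. The members and lists were chosen with earlier results of these data known, so lists are given as counts and medians without a test. Coordinates are from RefSeq on GRCg7b, matched by symbol (12012 of 12532 symbols tested). Simulated counts were used to test the edgeR fit. For HH17-18 against HH13-14, 82% of genes changed by a log2 fold change of 1 and 95% of those changed by 2 were recovered. Of 17805 genes in the step 14 were called though unchanged. The changed genes were drawn from those above a minimum mean count, and each gene had the same spread at every stage. The simulation therefore does not cover genes of low counts or the unequal spread of the stages. Some called genes are not reported here.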

Additional observations from a re-analysis of the deposited data

How the results depend on the processing

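The 425 higher and 375 lower genes became 1041 and 763 by DESeq2, 937 and 807 by limma voom with sample weights, 765 and 625 in the fit of the 6 pools, and 273 and 120 at a fold of at least 2. Leaving out 1 pool gave 27 to 786 higher and 69 to 722 lower genes, the highest counts without HH15-16 replicate 1. That pool had the lowest limma voom sample weight, 0.334 against 0.675 to 2.15 for the other pools. The cause of the changes in the counts was not tested. DESeq2 size factors, no filter and single lanes kept both counts within 1.5 times. With the replicate number as a block 469 genes were higher and 407 lower. Deviations of same-numbered pools correlated at 0.0436, -0.01 and 0.17, and those of the other pairs at -0.125 to 0.0986. These values are too few to tell whether the numbers pair the pools, and the labels do not say. The 6-pool fit with the block, chosen after the data were seen, called 606 and 470. Of 153 called genes named in the text, 37 passed in all 18 settings. These included LIN28A, LIN28B, NR6A1, RRS1, HGF, PI15, EDNRB2, CYP26C1, CCDC3, DLX5, DLX6, BMP4 and COL9A2. The other 116 lost the call in at least 1 setting. Of 603 such losses 552 came with a pool left out, 325 of them a pool of HH13-14. None of the 159 named genes changed direction under any setting. Of 1620 recomputed list medians 76 moved by more than the spread between HH17-18 pools. For the lists of cytosolic ribosomal proteins, neuronal cytoskeleton, neurotrophin receptors, sensory neuron factors and synaptic vesicles, the direction without a call by edgeR had 0 by DESeq2, by limma voom, in the 6-pool fit and at an unadjusted p under 0.05. Groups of 3 pools are too small for a check of single outlying pools.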

Other observations

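The genes in this section were chosen after their values were seen. CAD, which opens pyrimidine synthesis, read 724, 737 and 671 CPM at HH13-14 and 524, 543 and 472 CPM at HH17-18 (log2 fold change -0.47, SE 0.07, adjusted p 0.00798), and it passed in all 18 settings. Of the purine route PPAT fell from 125 ± 6.87 to 97.8 ± 7.87 CPM, GART fell (log2 fold change -0.36, adjusted p 0.017), PAICS fell from 341 ± 6.20 to 270.3 ± 16.01 CPM, IMPDH2 fell from 437 ± 25.8 to 339 ± 9.40 CPM and GMPS fell from 152 ± 2.63 to 127 ± 6.46 CPM. The call held in 15 of those settings for IMPDH2, in 13 for GART and PAICS, in 12 for PPAT and in 7 for GMPS. For ATIC and ADSL of the same route the values were log2 fold change -0.33, adjusted p 0.154 and log2 fold change -0.25, adjusted p 0.0813, which did not pass. PKLR, a pyruvate kinase gene, fell from 2633 ± 139.7 to 1883 ± 169.8 CPM.

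OTOGL, a gel protein over the hair cells of the ear, fell from 4.32 ± 1.26 to 0.679 ± 0.302 CPM, and USP18, a protease that interferon induces, rose from 3.82 ± 0.267 to 9.07 ± 1.54 CPM (log2 fold change 1.25, adjusted p 0.00969). By chromosome, of 576 tested genes placed on Z 21 rose and 7 fell, which is 3.65% and 1.22%, against 328 and 326 of 12044 placed genes in all. Of 9 rows tested with a symbol on W, which hens alone carry, 0 passed by edgeR and all 9 overlapped between the stages. HNRNPKL on W read 95.6, 160.4 and 70.4 CPM at HH13-14 and 148, 98.8 and 141 CPM at HH17-18, so pools differed within each stage. Among genes without a symbol 91 rose and 40 fell, of 5146 tested, which is 1.77% and 0.777%. Both shares were below the 2.40% and 2.12% of all genes tested.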
